A study of Nematostella vectensis with 10 samples.

Results

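The genes described here are the 32 *Nematostella vectensis* gene models, of 24520 in all, whose level after *NvpaxA* knockdown was at most 25% of the control level in each of 5 replicate pairs. Levels are in CPM, the estimated count of a gene per 1000000 counts of its library, and a mean of at least 2 CPM in the control libraries was required. Genes on the study's list of published cnidocyte genes were left out, of which *NvpaxA* itself (gene model NV2.6786) was the 1 gene that met the limits. The members were thus chosen by their CPM in the same 10 libraries that give the size of their difference, so that difference is described and not tested. The deposited tables name models by number only, and no identifier could be paired with a RefSeq gene, so the members are called by their numbers and no function is given. Of the 42 genes on the study's list, 4 have no model number there (*myc4*, *PRDM6-like*, *Max-like* and *PRDM13*) and could not be matched.

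The libraries came from polyA RNA of pools of about 1000 whole wildtype embryos, which had received a single *NvpaxA* shRNA or a scramble control by injection and were collected as gastrulae at 28 hours post fertilization after development at 24°C. There were 5 libraries per treatment. Batch LA61 held replicates 1 and 2 of both treatments, and batch LA70 held the rest. Each pair of libraries shares a replicate number.

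Cnidocytes are the stinging cells of cnidarians, and each builds a capsule that discharges a thread. *NvpaxA* encodes a paired-box transcription factor of developing cnidocytes that acts downstream of the zinc finger gene *Nvznf845*. An shRNA is processed into a small RNA that lowers the level of the matching transcript, so some transcript usually remains. In whole embryos, fewer cells of a type and less RNA per cell cannot be told apart.

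*NvpaxA* was at 102, 121, 93.5, 75.5 and 122 CPM in control replicates 1 to 5 and at 15.9, 16.2, 21.3, 10.8 and 22.9 CPM in shRNA replicates 1 to 5. Its groups did not overlap, and the knocked-down gene kept 16.9% of its control level in the means (103 ± 19.6 and 17.4 ± 4.81 CPM, SD, n = 5). Of the other 37 published cnidocyte genes with a model number, 31 reached 2 CPM in the controls, and the lowest residual level among these was 30.8% (*ggt*, NV2.1925). Of the 37, *NEP3* (NV2.20490), *NEP8* (NV2.19484) and *Tx60B-like5* (NV2.12610) were at or under 25% in 1 pair each, all with control means under 1 CPM. Libraries held 20037579 to 26883859 estimated counts. Control replicates 1, 2 and 4 and shRNA replicate 4 stood apart from the other 6 libraries on the first principal component, which held 27.8% of the variance. Pairs 3 and 5 hold none of these 4 libraries.

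Across the 15453 genes with at least 2 CPM in the controls, 33 met the limit in all 5 pairs with *NvpaxA* counted, which is 0.214% of them. A further 10 genes met it in 4 pairs, 14 in 3, 14 in 2 and 58 in 1, and 15324 in none. Of the 32 members, 30 had counts in every control library. The other members, NV2.7261 and NV2.22606, passed because a control library at 0 meets the limit with any shRNA library at 0. NV2.7261 was at 6.26, 14.2, 0, 12.1 and 0 CPM in the controls and at 0, 2.36, 0, 0 and 0 CPM after knockdown. NV2.22606 was at 3.54, 0, 0, 0 and 8.13 CPM in the controls and at 0 in all 5 shRNA libraries. Both were detected in some control libraries and listed at 0 in others, so the control libraries of each differed among themselves as much as from the shRNA libraries. A count of 0 allows up to 3 counts, which is 0.112 to 0.15 CPM here, for counting error only. Neither passed the filter on low counts of the fit described next, and both are left out of the counts over 30 members below.

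In edgeR's quasi-likelihood test over 19110 genes, with Benjamini-Hochberg adjustment and at least a 1.5-fold difference, 161 genes (0.842%) were called lower and 74 (0.387%) higher. All 30 members in this test were among the lower genes. Nothing is read from that count, because the pairs that chose them are the same libraries. Their median log2 fold change was -3.84, against 0.0055 over all genes tested. It was -3.81 in batch LA61 and -3.86 in batch LA70, with 16 of the 30 further down in LA61. The rule required a low level in every pair of both batches, so nothing is read from these medians. NV2.3341 and NV2.12144 were not called in LA70 alone (adjusted p = 0.09 and 0.0986 by edgeR).

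The residual level of a member, its mean shRNA CPM as a percent of its mean control CPM, ranged from 0.438% to 20.2% with a median of 6.91%. The levels formed a gradient: 3 members kept under 1%, 9 from 1% to under 5%, 8 from 5% to under 10%, 9 from 10% to under 20% and 1 more than 20%. For none of the 30 did any shRNA library reach the level of any control library. Over all 19110 genes tested 1.26% had every shRNA library under every control library, and nothing is read from the members' count, which the rule nearly fixes. Reads were still found in every shRNA library for 26 of the 30 members. With all 5 shRNA libraries under 1 CPM were 11 members, and with all 5 at 1 CPM or more 12. The 9 members with a control mean under 10 CPM had a median residual level of 4.76%, and the 21 with more had 8.2%. The residual level thus did not mark a set of genes that was lost whole, apart from a few at the lower end.

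**Figure D1:**
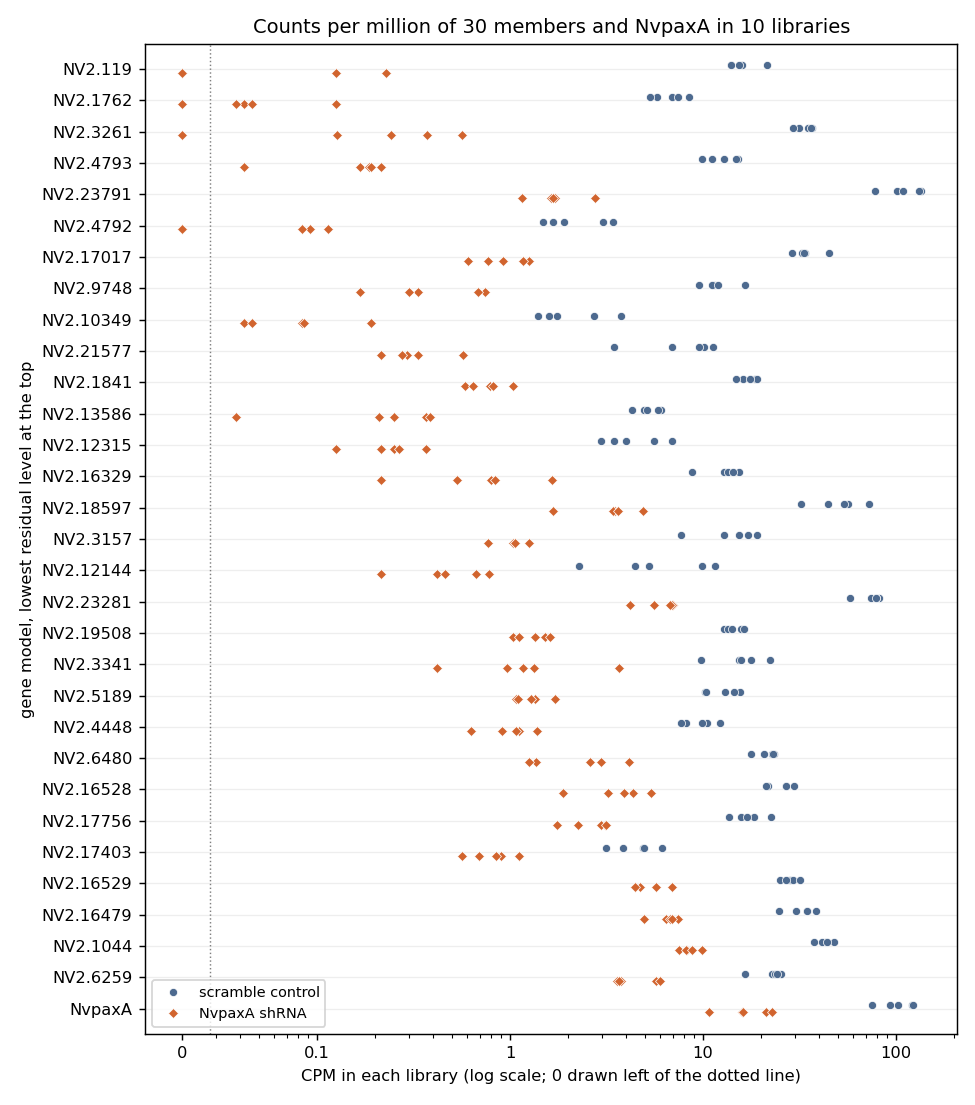
CPM in each of the 10 libraries for the 30 members with counts in every control and for *NvpaxA*, on a log axis with 0 drawn left of the dotted line. Circles are control libraries and diamonds shRNA libraries, ordered from the lowest residual level at the top (0.438%) to the highest (20.2%), with *NvpaxA* last. The rule, at most 25% in each pair, nearly fixes that the groups of a gene do not overlap.

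The 3 members under 1% came nearest to complete loss. NV2.119 was at 15.9, 13.9, 15.4, 13.9 and 21.5 CPM in the controls and at 0, 0, 0.125, 0 and 0.228 CPM after knockdown, with 9 estimated counts in the 5 shRNA libraries together. NV2.1762 was at 5.8, 8.43, 6.92, 5.33 and 7.44 CPM in the controls and at 0.0417, 0.0461, 0.125, 0 and 0.0379 CPM after knockdown, from 6 counts. NV2.3261 was at 36.5, 34.8, 31.5, 29.2 and 36.4 CPM in the controls and at 0.127, 0.372, 0.561, 0 and 0.242 CPM after knockdown. The last had ample control reads, with its highest shRNA library at 0.561 CPM and a residual level of 0.774%. Of these 3 genes, NV2.119 alone was at 0 in more than 1 shRNA library.

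Several members that took many reads were reduced to a low but measurable level. NV2.23791, with the highest control CPM of the members, was at 101, 134, 109, 78.3 and 131 CPM in the controls and at 1.63, 1.71, 2.76, 1.15 and 1.67 CPM after knockdown. Its residual level was 1.61%, and among the shRNA libraries replicate 3 was highest and replicate 4 lowest. NV2.17017 was at 33.7, 45, 32.7, 28.9 and 33.4 CPM in the controls and at 0.918, 1.25, 1.17, 0.77 and 0.607 CPM after knockdown, or 2.71%. NV2.18597 was at 44.5, 56.3, 53.7, 32.3 and 72.2 CPM in the controls and at 3.52, 3.41, 3.64, 1.67 and 4.9 CPM after knockdown, or 6.62%. Within both treatments NV2.18597 was lowest in replicate 4 and highest in replicate 5.

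NV2.23281 was at 81.2, 79.1, 73.9, 57.9 and 78.7 CPM in the controls and at 5.56, 7.01, 6.87, 4.19 and 6.76 CPM after knockdown, a residual level of 8.2%. Near the other end, NV2.1044 was at 43.5, 47.9, 41.4, 37.8 and 43.7 CPM in the controls and at 9.93, 7.52, 8.24, 8.21 and 8.77 CPM after knockdown. Its residual level, 19.9%, had a pairwise range of 15.7% to 22.8%. NV2.16479 was at 30.5, 38.6, 34.4, 24.7 and 34.5 CPM in the controls and at 6.41, 6.78, 7.4, 4.92 and 6.91 CPM after knockdown, or 19.9% as well. In NV2.16479 the residual level was even across pairs, from 17.6% to 21.5%, and each pair stood well above zero reads, with at least 115 estimated counts.

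The members nearest to the 25% limit were NV2.6259, NV2.16529 and NV2.6480, whose highest pair reached 24.7%, 23.8% and 23.3%. NV2.6259 was at 22.7, 25.4, 23.7, 16.6 and 24.3 CPM in the controls and at 3.75, 5.68, 3.6, 3.68 and 6 CPM after knockdown. NV2.6480 was at 22.9, 23.2, 20.6, 17.7 and 23 CPM in the controls and at 2.97, 1.36, 1.26, 4.14 and 2.59 CPM after knockdown. NV2.6480 was thus near the limit in pair 4 alone, since its other pairs lay between 5.89% and 13%. Just outside were NV2.3648, NV2.11117 and NV2.3951, with 25.6%, 26.3% and 27.2% in their highest pair and 20.3%, 22.4% and 21.6% in the means. Their control means were 3.52, 11.8 and 14 CPM, and the limit separated members from these genes by a small margin.

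For 14 of the 32 members the values of single libraries are not listed here. These 14 had control means from 2.24 to 17.4 CPM, shRNA means from 0.0894 to 2.64 CPM and residual levels from 3.68% to 17.9%.

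In TPM, transcripts per 1000000 transcripts, which are scaled by length and can be compared between genes, the 32 members had a median control level of 10, from 1.22 to 98.2, against 12.7 for the 15453 genes with at least 2 CPM. The highest control TPM were those of NV2.3261 (98.2), NV2.23281 (84.9) and NV2.23791 (43.3), and *NvpaxA* had 39.1. NV2.3261 lay at the 92.3rd percentile of those 15453 genes by control TPM. The longest transcript model of a member had a median of 2010.5 bases, against 2648 for those genes. More than 1 transcript model was listed for 5 of the 32 members (15.6%), against 28.7%.

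The variation among libraries of a treatment was compared with what read counting alone gives, as the chi-square of a gene's counts against equal CPM divided by its degrees of freedom. A ratio near 1 is counting error. In the controls this ratio had a median of 12 over the 30 members (2.43 to 111), and none was under 2. In the shRNA libraries the median was 2.25 (0.68 to 25), and 13 members were under 2. The ratio grows with the number of counts, so the treatments are not compared by it.

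Co-variation of the members with what was left of *NvpaxA* was described pair by pair, since 5 pairs are too few for a correlation. *NvpaxA* kept 15.6%, 13.3%, 22.8%, 14.3% and 18.7% in pairs 1 to 5 (16.9 ± 3.86%, SD, n = 5). The 30 members summed kept 8.86%, 7.85%, 8.74%, 9.15% and 7.91% (8.5 ± 0.587%). Pair 3 had the highest *NvpaxA* residual level and pair 4 the highest summed residual level. The spread of a sum over 30 genes is not compared with that of a single gene, and the rule held each member to at most 25% in each pair. The median member kept 6.73%, 6.47%, 6.28%, 8.07% and 5.85% in pairs 1 to 5, again highest in pair 4. In these pairs 22, 25, 30, 24 and 27 of the 30 members had a lower residual level than *NvpaxA*. Over all pairs 21 members were below *NvpaxA* in every pair and 0 above it in every pair, and in the means 25 were below and 5 above. The rule's limit of 25% lies close to the *NvpaxA* level in pair 3 (22.8%). These counts were thus partly fixed by the rule, and nothing is read from them.

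**Figure D2:**
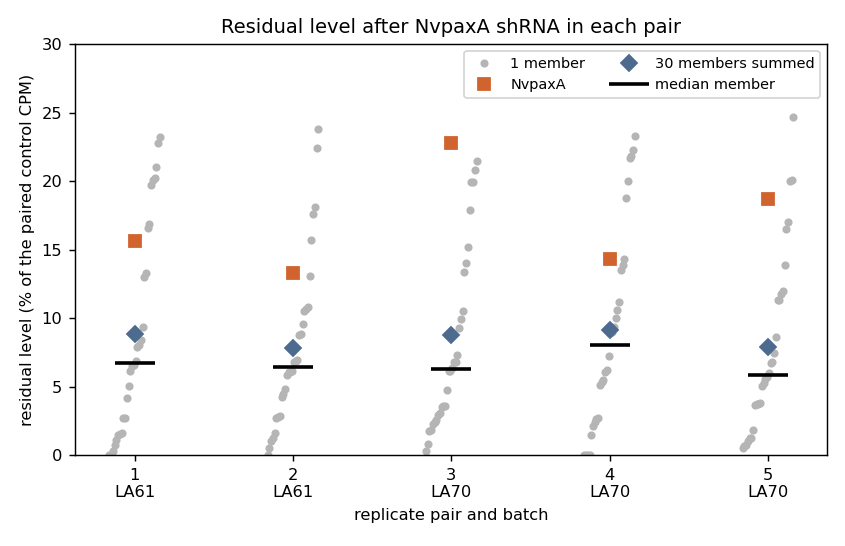
Residual level, shRNA CPM as a percent of the paired control CPM, in each of the 5 replicate pairs with their batch. Grey points are the 30 members, squares *NvpaxA*, diamonds the 30 members summed and black bars the median member. *NvpaxA* was highest in pair 3 (22.8%) and the summed members in pair 4 (9.15%).

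The absolute levels gave a different picture from the residual levels. The members summed to 649, 754, 685, 518 and 769 CPM in control replicates 1 to 5 (675 ± 101 CPM, SD, n = 5) and to 57.5, 59.1, 59.9, 47.4 and 60.8 CPM in shRNA replicates 1 to 5 (56.9 ± 5.47 CPM). In the shRNA libraries the order of these sums, lowest in replicate 4 and then 1, 2, 3 and 5, was also the order of *NvpaxA*, although the 4 upper sums lay close together. shRNA replicate 4 was also lowest for 61.8% of the 34 published cnidocyte genes tested and 27.6% of all genes tested. How many other genes share the full order was not counted, so nothing is read from the match. In the controls replicate 4 was lowest and replicate 5 highest for both, with replicates 1 and 3 exchanged between the orders. The points share their libraries, and the sums lean on a few genes, since the members with the highest and the next highest control CPM held 27.4% of the control sum.

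Members often shared their lowest control library. Control replicate 4 was the lowest of the 5 controls for 25 of the 30 members (83.3%), against 30.3% of all genes tested and 58.8% of the 34 published cnidocyte genes tested. Control replicate 2 was highest for 14 members (46.7%, against 24.4% of all genes tested) and control replicate 5 for 9 (30%, against 42.6%). Of the published cnidocyte genes tested, 29.4% were highest in control replicate 2 and 50% in control replicate 5. After knockdown, shRNA replicate 4 was lowest for 11 of the 30 (36.7%), against 27.6% of all genes tested and 61.8% of the 34 published cnidocyte genes. Replicate 4 was thus the lowest control for most members. After knockdown 18 of the 30 had under 20 estimated counts in at least 1 shRNA library. Their order there is imprecise, so the treatments are not compared by it. Control replicate 4 and shRNA replicate 4 are among the 4 libraries that stood apart, and the part of this in the order was not tested. Without those libraries, in pairs 3 and 5 alone, the median residual level of the members was 6.39%. That median includes NV2.22606, at 0 after knockdown, but not NV2.7261, which had no control counts in these pairs. The rule held each member to at most 25% in both pairs, so nothing is read from it. A new choice of genes by the 25% limit in these pairs alone gave 45.

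**Figure D3:**
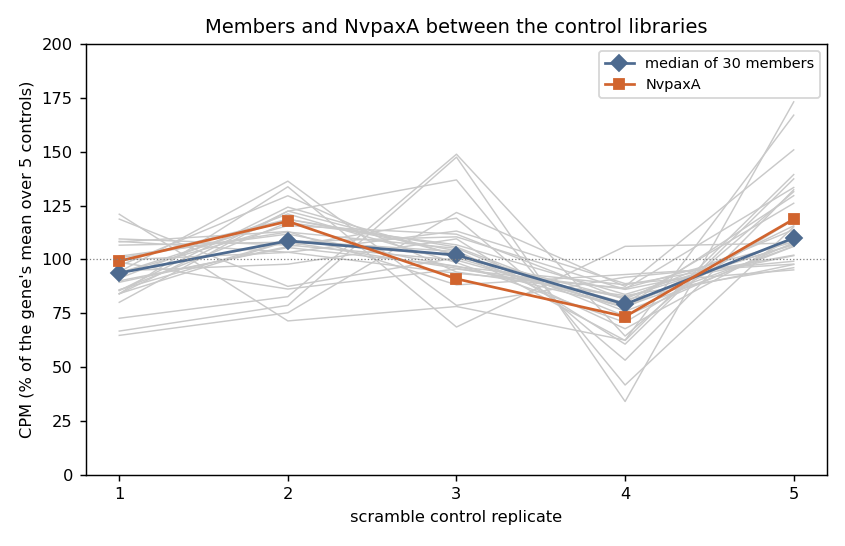
CPM of each of the 30 members in the 5 control libraries as a percent of the gene's mean over the controls (grey lines), with the median member (diamonds) and *NvpaxA* (squares). Lines join the values of a gene and imply no order of the replicates. Replicate 4 was the lowest control for 25 of the 30 members and for *NvpaxA*.

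The numbers of the models were examined for runs. The files give no coordinates, so a neighbouring number is a neighbouring name and was not checked against position on a chromosome. Of the 32 members, 4 were in 2 pairs of consecutive numbers, NV2.4792 with NV2.4793 and NV2.16528 with NV2.16529. NV2.4792 was at 1.67, 1.9, 3.42, 1.48 and 3.02 CPM in the controls and at 0, 0.0923, 0.0836, 0 and 0.114 CPM after knockdown, from 7 counts in all. NV2.4793 was at 15.2, 11.2, 12.9, 9.92 and 14.8 CPM in the controls and at 0.167, 0.185, 0.0418, 0.214 and 0.19 CPM after knockdown. Residual levels of 2.52% and 1.24% put both members in the lower part of the range. The control CPM of NV2.4792 was 0.11 to 0.265 of that of NV2.4793, a ratio that varied 2.42-fold between control libraries, so their control counts did not keep 1 ratio.

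NV2.16528 was at 21.6, 29.5, 26.9, 21.1 and 26.9 CPM in the controls and at 4.34, 3.88, 5.35, 1.88 and 3.23 CPM after knockdown. NV2.16529 was at 28.2, 29.2, 32, 25.1 and 26.9 CPM in the controls and at 5.68, 6.95, 4.47, 4.73 and 4.44 CPM after knockdown. Both kept more than the median member, 14.8% and 18.6%, and their control CPM stood in a narrow ratio of 0.765 to 1.01. The shRNA libraries ranked differently for each of them, with replicate 3 highest for NV2.16528 and replicate 2 for NV2.16529.

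The rule did not choose the genes numbered 1 above or 1 below a member, so these could be tested. Of 56 such genes 45 were in the edgeR fit, and 6 of the 45 (13.3%) were called lower, against 0.842% of all genes tested. Of the same 45, 1 was called higher (2.22%, against 0.387%) and 38 neither. With the replicate number as a block 7 were called lower, while the genes called lower over all genes tested rose from 161 to 194. NV2.17402, next to NV2.17403, was added at a log2 fold change of -0.78 (adjusted p = 0.00307). Without the 4 libraries that stood apart, which leaves replicates 3 and 5 as the only controls, 5 were called lower. That fit called 112 genes lower over all genes tested. NV2.16328 was called lower in either batch alone and NV2.17402 in LA61 alone, with 2 libraries per treatment in LA61 and 3 in LA70. At a distance of 2 to 5 numbers, a range chosen after the data were seen, 5 of 177 genes tested (2.82%) were called lower (NV2.5187, NV2.10344, NV2.16526, NV2.17399 and NV2.17408) and 2 higher (NV2.6485 and NV2.9744).

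Of the 6 lower neighbours, NV2.16328 took the most reads, at 3.54, 4.91, 5.99, 3.56 and 6.8 CPM in the controls and at 1.31, 1.34, 1.39, 0.916 and 1.04 CPM after knockdown. Its log2 fold change was -2.04 (SE 0.24, adjusted p = 0.000335 by edgeR), and it is next to the member NV2.16329, which kept 6.21%. NV2.21576, next to NV2.21577, was at 3.63, 3.54, 4.87, 1.32 and 5.15 CPM in the controls and at 0.793, 0.185, 0.46, 0.856 and 1.44 CPM after knockdown. Control replicate 4 of NV2.21576 lay under shRNA replicate 5, so its groups overlapped. The call was lost without any 1 of shRNA replicates 1 and 3 and control replicates 3 and 5, at -2.12 to -2.28, and over all libraries its log2 fold change was -2.29 (SE 0.44, adjusted p = 0.0181 by edgeR). On the other side of NV2.21577 lies *ANTR2-like* (NV2.21578), a published cnidocyte gene, which averaged 15.1 ± 2.46 CPM in control and 11.5 ± 1.63 CPM in shRNA libraries (SD, n = 5). *ANTR2-like* was not called (log2 fold change of -0.39 with an SE of 0.14 and an adjusted p of 0.514 by edgeR).

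NV2.3342, next to NV2.3341, was at 0.583, 1.1, 0.818, 0.64 and 1.54 CPM in the controls and at 0.0834, 0.0461, 0.0845, 0 and 0.0825 CPM after knockdown. Its log2 fold change was -3.85 (SE 0.49, adjusted p = 0.000759 by edgeR), from 7 counts in the shRNA libraries. NV2.12143, next to NV2.12144, was at 1.25, 1.1, 2.06, 0.72 and 2.93 CPM in the controls and at 0.209, 0.185, 0.0418, 0.0428 and 0.247 CPM after knockdown, with a log2 fold change of -3.44 (SE 0.5, adjusted p = 0.00229 by edgeR). Both genes were too low in the controls to have qualified as members, and neither had overlapping groups, against 1.26% of all genes tested that were lower in every shRNA library.

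NV2.4791 extends the run of NV2.4792 and NV2.4793 to 3 numbers, and fell from 1.86 ± 0.616 to 0.421 ± 0.168 CPM (SD, n = 5; log2 fold change of -2.11 with an SE of 0.33 and an adjusted p of 0.00429 by edgeR). On the other side of this run NV2.4794 averaged 23.9 ± 1.94 CPM in control and 28.9 ± 2.96 CPM in shRNA libraries (SD, n = 5) and was not called (log2 fold change of 0.28 with an SE of 0.09 and an adjusted p of 0.428 by edgeR). NV2.16480, next to NV2.16479, fell from 1.59 ± 0.571 to 0.535 ± 0.223 CPM (SD, n = 5; log2 fold change of -1.54 with an SE of 0.31 and an adjusted p of 0.0228 by edgeR). The call of NV2.16480 was lost without any 1 of shRNA replicates 2, 3, 4 and 5 and control replicates 1, 2, 3 and 5, at log2 fold changes of -1.37 to -1.58.

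The gene called higher was NV2.5190, next to the member NV2.5189. NV2.5190 was at 2.75, 3.71, 5.05, 2.71 and 3.94 CPM in the controls and at 15.8, 17.2, 20.2, 10.9 and 19.9 CPM after knockdown (log2 fold change of 2.21 with an SE of 0.22 and an adjusted p of 0.000109 by edgeR). NV2.5189 averaged 12.7 ± 2.42 CPM in control and 1.3 ± 0.257 CPM in shRNA libraries (SD, n = 5). Neighbouring numbers therefore lay in opposite directions here. The groups of NV2.5190 did not overlap, against 0.644% of all genes tested that were higher in every shRNA library. Salmon had divided reads among models for 28 of the 32 members, judged by an estimated count more than 0.02 from a whole number in at least 1 library, so levels of genes that share reads are uncertain. Whether these neighbours share reads with each other was not tested. In all, 9 members had a neighbouring number that was a member or was called lower, and 23 had none. That count joins members chosen by the rule with neighbours that were tested. No share over all genes was computed for it, so nothing is read from it.

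**Figure D4:**
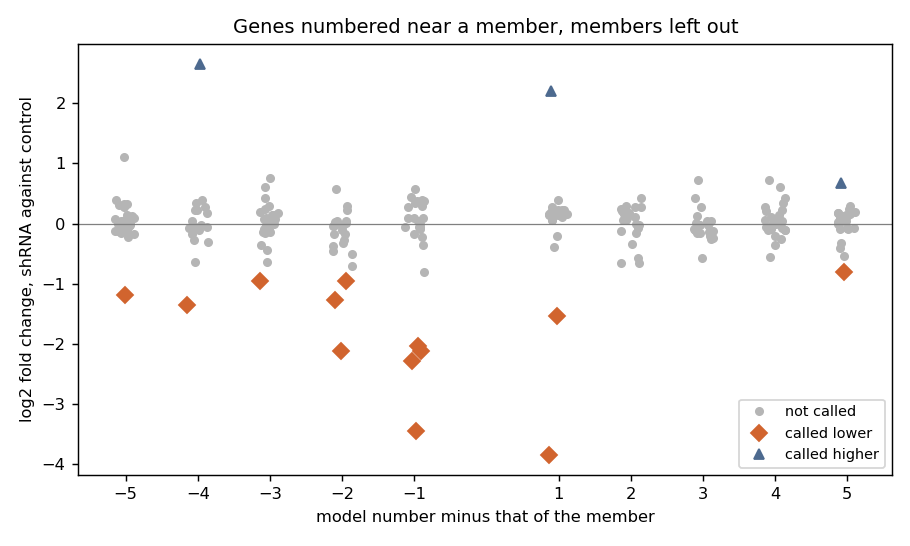
Log2 fold change, shRNA against control, of genes whose model number differs by 1 to 5 from that of a member, with members left out. A gene near several members is drawn at each distance. Diamonds were called lower, triangles called higher and grey points neither. At a distance of 1, 6 of 45 genes were called lower and 1 higher.

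The share of a gene's counts held by each of its transcript models was not used by the rule either. Of the 5 members with several models, NV2.19508 alone had at least 20 estimated counts in every library. Summed over its models, NV2.19508 was at 15.7, 16.4, 12.8, 13.5 and 14.2 CPM in the controls and at 1.04, 1.12, 1.34, 1.51 and 1.61 CPM after knockdown, or 9.1%. Model 1, of 2488 bases, held 89.7%, 86.4%, 81.6%, 85.9% and 79.8% of the counts in the controls and 12%, 53.7%, 28.2%, 2.84% and 9.45% after knockdown. The shares did not overlap (84.7 ± 3.96% and 21.2 ± 20.4%, SD, n = 5; exact two-sided permutation test, p = 0.00794, the smallest that 5 against 5 libraries allow). A sign-flip test within pairs gave an exact p = 0.0625, the smallest that 5 pairs allow.

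In CPM, model 1 of NV2.19508 went from 12.3 ± 1.72 to 0.259 ± 0.227 and model 2, of 1663 bases, from 2.19 ± 0.473 to 1.06 ± 0.401 (SD, n = 5). Model 1 thus kept 2.1% of its control level and model 2 kept 48.4%, lower in all 5 pairs. Much of the residual level of this gene, 9.1%, was therefore held by the shorter model. The shRNA shares rest on 24 to 42 estimated counts per library, and Salmon divided those reads between the models.

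**Figure D5:**
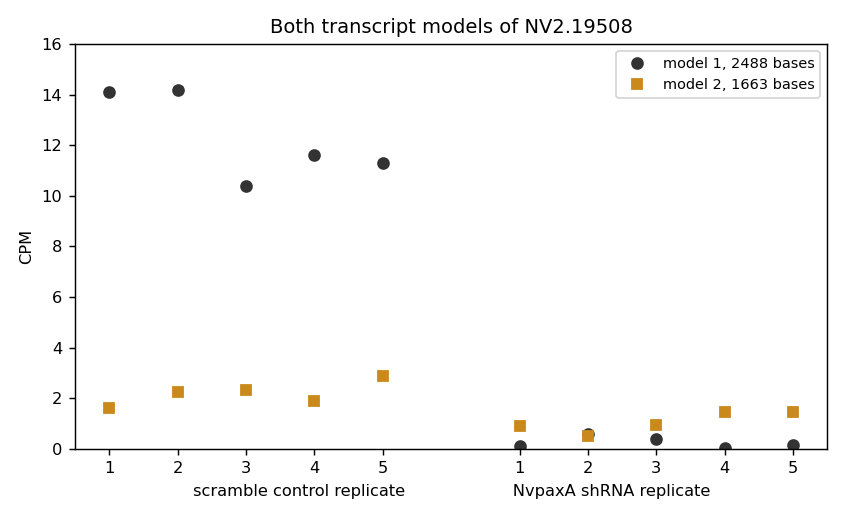
CPM of the transcript models of NV2.19508 in the 5 control libraries (left) and the 5 shRNA libraries (right), by replicate. Circles are model 1 of 2488 bases, with means of 12.3 and 0.259 CPM, and squares model 2 of 1663 bases, with means of 2.19 and 1.06 CPM.

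Whether the shRNA difference of a gene differed between batches was tested for all 19110 genes with a treatment-by-batch term in edgeR, and 0 genes passed at an adjusted p of 0.05 (0%). Unadjusted, 424 genes (2.22%) had a p under 0.05, and DESeq2 called 0 with 476 unadjusted. That share is lower than a cutoff of 0.05 gives by chance, and each batch held few replicates. A gene that did not pass may therefore still differ between the batches. Of the 30 members 3 (10%) had an unadjusted p under 0.05 and none passed. For NV2.12315 the log2 fold change was -3.36 in LA61 and -4.72 in LA70, and for NV2.19508 -3.9 and -3.19. For NV2.119 both shRNA libraries of LA61 were at 0, so its fitted value there depends on the prior count and is not given. The rule required a low level in both batches, so these values describe the members and nothing is concluded from them.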

How the data were processed

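Per the labels and methods, the authors ran Salmon and DESeq2 on Galaxy, with Nvec200 as the genome. Tool versions and the settings of the quantification were not found in the labels or methods. In each deposited table there are estimated counts, TPM and lengths for 35819 transcript models. Estimated counts were summed over models sharing the first 10 characters of their name, giving 24520 gene models. Members and lists were chosen with earlier results of these data known. CPM used library totals (20037579 to 26883859 counts).

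Counts rounded to whole numbers were tested with edgeR 4.0.16 in R 4.3.3 (filterByExpr, TMM, quasi-likelihood F test, Benjamini-Hochberg, adjusted p of at most 0.05 and at least 1.5-fold), with group as the only term. The SE given with an edgeR log2 fold change was derived from the test, as its absolute value divided by the square root of the F statistic. DESeq2 1.42.0 was an alternative. The step was tested on simulated data. Those counts were drawn independently for each library and held no pairs, and no result here rests on them. The study describes paired replicates, and libraries were paired by replicate number. Deviations from the group means correlated at 0.12 to 0.45 within the 5 pairs. Libraries of different numbers were not correlated, so these values cannot tell pairing from a shared batch. Replicates are separate embryo pools. Values in every library are given for the 8 members with the highest control CPM, the 8 with the lowest residual level, members in consecutive numbers or nearest the limit, members at 0 in at least 3 shRNA libraries, and members passing the model share test. Paralogs and antisense partners were not checked.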

Additional observations from a re-analysis of the deposited data

Results flagged for a closer look

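In 80 sets of 5 libraries, those of each member, *NvpaxA* and the called neighbours within a treatment, 5 held a library far from the other 4 by Dixon's criterion, and chance gives about 1 in 20. NV2.119 was at 21.5 CPM in control replicate 5, with the other controls at 13.9 to 15.9 CPM. NV2.3341 was at 3.68 CPM in shRNA replicate 3 and at 0.417 to 1.33 CPM in the others. NV2.4793 was at 0.0418 CPM in shRNA replicate 3 and at 0.167 to 0.214 CPM in the others, which is 1 count against 4 to 5. NV2.7261 was at 2.36 CPM in shRNA replicate 2 and at 0 in the others. NV2.16480, the neighbour of NV2.16479, was at 0.918 CPM in shRNA replicate 1 and at 0.376 to 0.531 CPM in the others.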

How the results depend on the processing

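The number of members was 32 at a limit of 25% and 20 at 12.5% (one eighth). It was 23 with every shRNA library held to 25% of every control library, a stricter limit that uses no pairs. With transcript models not summed, 53 models met the limit, of which 36 had counts in every control library. Leaving out 1 pair gave 31 to 37 genes. Over all 32 members, NV2.7261 and NV2.22606 included, the median residual level was 6.91%. It was 6.13% as the median of pairwise ratios and 5.78% to 7.08% with 1 pair left out, lowest without replicate 2. That replicate held the only shRNA counts of NV2.7261, whose residual level is 0 without it. Genes called lower numbered 161, 58 in LA70 alone and 129 to 159 with 1 library left out. Genes called higher numbered 74, against 115 with DESeq2, 141 with the replicate block, 267 in LA61 alone, 12 in LA70 alone and 60 to 100 with 1 library left out. Neighbours called lower numbered 6, against 2 in LA61 alone, 1 in LA70 alone and 4 to 6 with 1 library left out. Neighbours called higher numbered 1, against 2 in LA61 alone and 0 in LA70 alone. With the replicate block 1 gene had a batch interaction (NV2.7152, not a member, named after its values were seen) and 0 members a shifted share of models by the sign-flip test, which cannot pass with 5 pairs. At 50 counts no member could be tested for its share. The block changed no other call of a member, and of the neighbours only that of NV2.17402. The call of NV2.16480 was lost in 11 of 19 alternatives and that of NV2.21576 in 6 of 19, and no neighbour reversed. Alternatives by batch, without the 4 libraries apart, with unsummed models in every control, and for pairs 3 and 5 were chosen after seeing the data. The causes were not tested. Members under 20 counts in a shRNA library, 18 of 30, have imprecise residual levels.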
